A study of Rattus norvegicus with 8 samples.

Results

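The insulin-like growth factor (IGF) axis was examined in rat retina through 10 genes. They are the ligand genes Igf1 and Igf2, the receptor genes Igf1r, Igf2r and Insr, and the binding protein genes Igfbp2, Igfbp3, Igfbp4, Igfbp5 and Igfbp6. A probe set, a group of probes that reads one stretch of a gene, was taken for a gene when the array annotation gave that gene's symbol and no other. This gave 135 of 213067 probe sets and 10 of 16633 genes, and every member was measured. No member was dropped, since no filter on low values was used in the comparison.

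The retinas came from male Brown Norway rats aged 8 weeks, and the labels name no other strain, genotype or lesion. In the treated group the eye received current from a corneal electrode, which is called transcorneal electrical stimulation (TES), and RNA was taken 4 h later. The control group, named TES Control in the labels and sham in the series text, had a sham treatment and was taken at the same time. Each group had 4 samples, hybridised singly to Rat Gene 1.0 ST arrays of Affymetrix, which carry probe sets along the exons. The labels do not name the animal behind an array. A p-value here therefore describes the spread among arrays, part of which may be technical.

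IGF1 and IGF2 are secreted peptides related to insulin. IGF1 acts mainly through the receptor tyrosine kinase encoded by Igf1r, which signals through insulin receptor substrates to PI3K, AKT and the FOXO factors, while the receptor encoded by Igf2r takes up and degrades IGF2. The binding proteins hold the ligands outside the cell and set how much of them reaches a receptor. In the retina IGF1 is known as a survival factor for ganglion cells, and earlier work on transcorneal stimulation in rats has discussed it in that role.

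Signals are log2 GC-RMA values, and differences are TES minus sham in log2 units, so that 0.26 corresponds to 1.2 fold. The median signal of an array ranged from 5.32 (TES 2) to 5.41 (sham 4). As a check of the tissue label, the rod markers Gnat1, Sag, Pde6b and Nrl had mean signals between 10.22 and 12.45. The 1095 olfactory receptor genes of the array served as a guide to low signal, with a 95th percentile of 3.10. Of the 10 members, 9 had a mean signal above that percentile, and Igfbp6 (2.81) did not. In whole retina, fewer cells of a type and less RNA per cell cannot be told apart.

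None of the 10 genes passed an adjusted p of 0.05 in limma, with adjusted p between 0.878 and 0.999. Over the whole array the share was 0%, or 0 of 16633 genes, with 927 at an unadjusted p under 0.05. The unmoderated equal-variance test also gave 0 genes at the adjusted threshold and 906 at the unadjusted one. At an unadjusted p under 0.05 limma gave 1 of the 10 members, Igfbp4, against 5.57% of all genes. It was lower after TES, as were 3.22% of all genes at that threshold. The study's own thresholds, which add a minimum of 1.2 fold, selected 0 of the 10 against 3.59% of all genes. TES and sham arrays overlapped for every member, where 3.31% of all genes had groups apart. The median difference over the members was -0.01, as over all genes (-0.01).

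**Figure D1:**
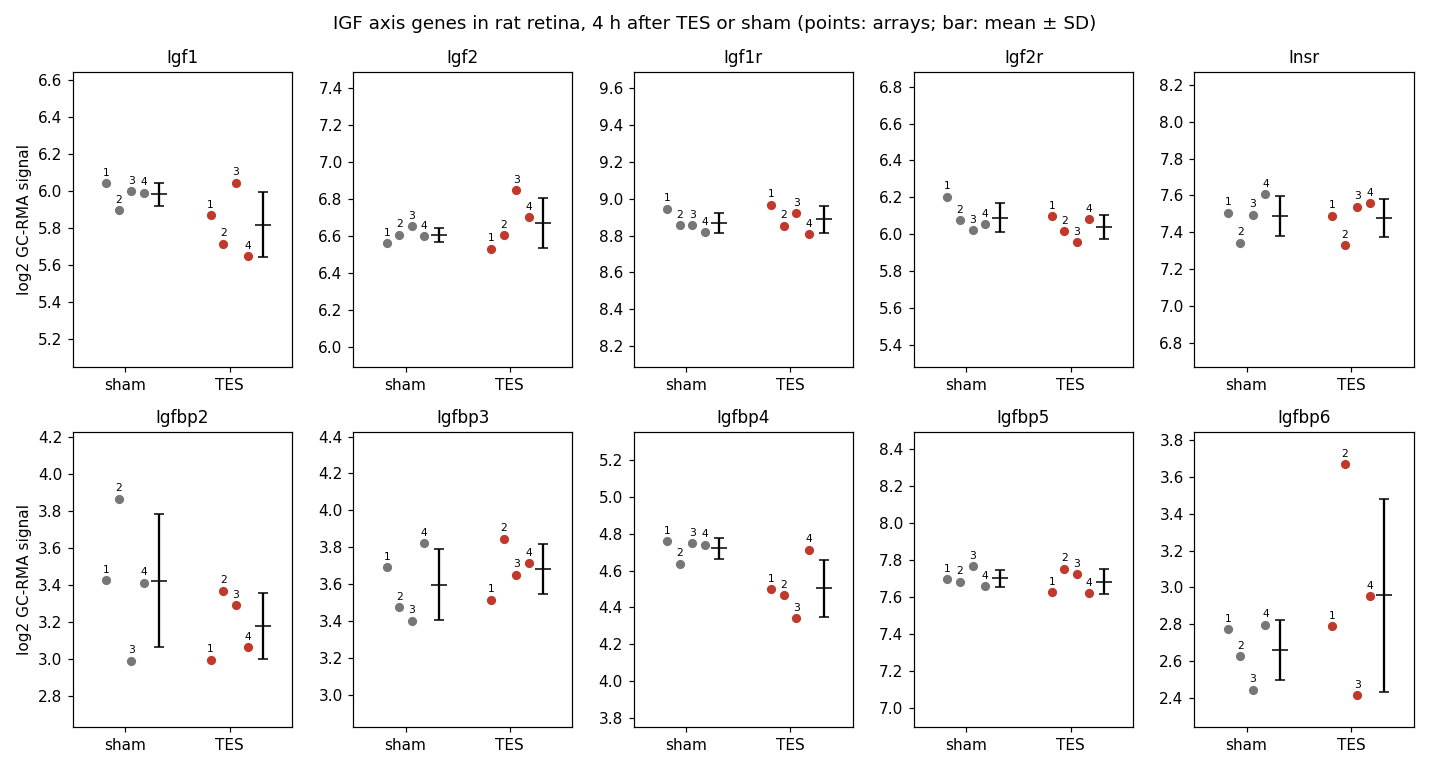
Log2 GC-RMA signal of the 10 genes on each array, with sham arrays in grey, TES arrays in red, the replicate number beside each point and the mean ± SD (n = 4) as a bar. Every panel spans the same number of log2 units. The arrays of both groups overlap in all panels, and the widest spread is that of Igfbp6 on TES arrays (SD 0.52).

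Among the receptor genes, Igf1r, which encodes the main signalling receptor, read 8.97, 8.85, 8.92 and 8.81 on TES arrays 1 to 4. On sham arrays 1 to 4 it read 8.95, 8.86, 8.86 and 8.82. The arrays of the groups interleave, and all 8 values lie within 0.16 log2 units. The TES mean was 8.89 ± 0.07 (SD, n = 4) and the sham mean 8.87 ± 0.05, which gives 0.02 for the difference (95% interval -0.16 to 0.19, limma adjusted p 0.996). The ends of this interval correspond to at most 1.14 fold. Other summaries of the Igf1r probe sets gave wider 95% intervals. They were -0.26 to 0.25 for the median and -0.34 to 0.20 for the single probe set of highest mean. Without TES 1 the difference was -0.0088.

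Insr, the insulin receptor gene, read 7.49, 7.33, 7.54 and 7.56 on TES arrays and 7.51, 7.34, 7.50 and 7.61 on sham arrays. The lowest array of each group was the one numbered 2, and the groups covered almost the same range. Its difference was -0.01 (95% interval -0.21 to 0.19, limma adjusted p 0.999). The ends of this interval correspond to at most 1.15 fold. Again the 95% interval was wider for the median (-0.22 to 0.23) and the highest-mean probe set (-0.08 to 0.38). The sign of the Insr difference turned with median-centred or quantile-normalized arrays (0.028 and 0.014).

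Igf2r, whose product clears IGF2 and also carries lysosomal enzymes, read 6.10, 6.02, 5.96 and 6.08 on TES arrays and 6.20, 6.08, 6.02 and 6.06 on sham arrays. TES 3 was lowest and sham 1 highest. The means were 6.04 ± 0.06 and 6.09 ± 0.08, a difference of -0.05 (95% interval -0.23 to 0.13, limma adjusted p 0.979). With 48 probe sets it has the broadest coverage of the 10 genes. In the main comparison, which averages a gene's probe sets, 5 members had 95% intervals within 1.2 fold in either direction. They are Igf2r, Igf1r, Insr, Igf2 and Igfbp5. The same held for 25.9% of all genes.

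**Figure D2:**
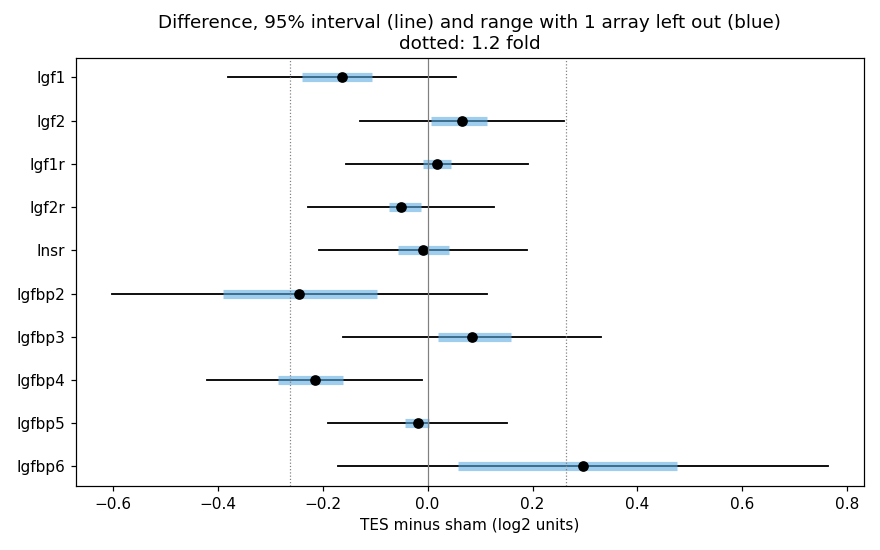
TES minus sham for each gene in log2 units (black point), with the 95% interval from limma (black line) and the range when 1 of the 8 arrays is left out (blue band). Dotted lines mark 1.2 fold. The interval of Igfbp4 (-0.42 to -0.01) is the 1 that does not include 0, and the blue bands are widest for Igfbp6 (0.06 to 0.48) and Igfbp2 (-0.39 to -0.10).

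Among the ligands, Igf1 read 5.87, 5.71, 6.05 and 5.65 on TES arrays 1 to 4. On sham arrays 1 to 4 it read 6.04, 5.90, 6.00 and 5.99. Sham arrays lay close together, and 3 of 4 TES arrays lay below all of them, while TES 3 was the highest of the 8. The means were 5.82 ± 0.18 and 5.98 ± 0.06, a difference of -0.16 (95% interval -0.38 to 0.05, limma adjusted p 0.920). The exact two-sided permutation p was 0.200. Without TES 3 the difference was -0.24 (limma unadjusted p 0.0286, adjusted p 0.920).

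The 8 probe sets of Igf1 show where this difference sits. Probe set 10894701 read 4.30, 2.14, 3.73 and 2.89 on TES arrays and 4.82, 4.16, 4.25 and 4.59 on sham arrays. It was below all sham values on TES 2, TES 3 and TES 4 but not on TES 1. On TES 2 and TES 4 it also read below the olfactory guide (3.10). Its difference of -1.19 had an unadjusted p of 0.0259 and a limma adjusted p of 0.957 over all probe sets. The differences of the other 7 probe sets ran from -0.20 to 0.18. With this probe set left out, a choice made after its values were seen, the TES mean of Igf1 was 6.18 ± 0.15 and the sham mean 6.20 ± 0.04, which differ by -0.02. The median probe set gave 0.14, the opposite sign. Most of the mean difference of Igf1 thus came from 1 of 8 probe sets.

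**Figure D3:**
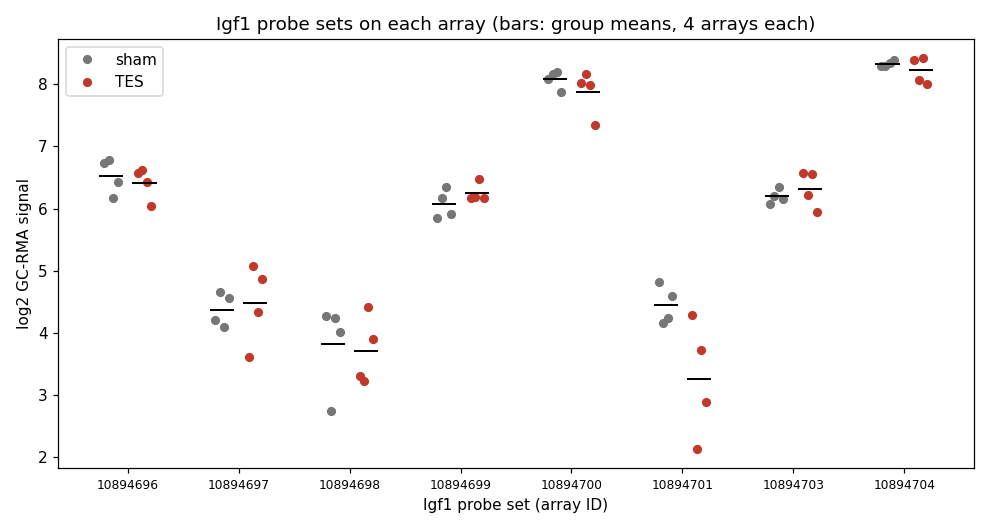
Log2 signal of the 8 Igf1 probe sets, named by their array IDs, on sham (grey) and TES (red) arrays, with group means as bars (n = 4). Probe set 10894701 stands apart with a difference of -1.19, and the 7 others differ by -0.20 to 0.18.

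Microglia, which are a known source of IGF1 in nervous tissue, were followed by 6 marker genes (Cx3cr1, Aif1, Csf1r, P2ry12, Itgam and C1qa). Their mean log2 signal per array ran from 3.90 to 4.25 on TES arrays and from 4.03 to 4.32 on sham arrays. It was lowest on TES 2 and TES 4, the arrays where the Igf1 mean was also lowest. That Igf1 mean includes probe set 10894701, which was itself lowest on TES 2 and TES 4. The order of the TES arrays for Igf1 thus rests partly on that probe set. Among sham arrays the mean of the microglial markers was lowest on sham 2, as was Igf1. Among TES arrays microglial markers spanned 3.90 to 4.25, rod markers 11.05 to 11.22 and array medians 5.318 to 5.360. Rod markers were lowest on TES 4 (11.05) and TES 2 (11.07) among TES arrays, and on sham 2 (11.02) among sham arrays. The median signal of the whole array was lowest on TES 2 (5.318) and TES 4 (5.320), and among sham arrays on sham 2 (5.327). The microglial markers were highest on sham 3, but Igf1 on TES 3. All 6 microglial markers had negative differences, 4 of 6 with median-centred arrays, and none passed at an unadjusted p under 0.05. The part of microglia in the Igf1 values was not tested. Markers of Mueller glia, another known source, ran from 8.92 to 9.06 and from 8.91 to 9.03. They were highest of all arrays on TES 3, as was Igf1. Within the groups they were lowest on TES 4 and on sham 2, again as was Igf1. TES 1 (8.98) and TES 2 (8.99) had the opposite order to the Igf1 mean that includes probe set 10894701. The part of Mueller glia was not tested either.

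Igf2, a growth factor gene best known for its role before birth, read 6.53, 6.60, 6.85 and 6.70 on TES arrays and 6.56, 6.61, 6.65 and 6.60 on sham arrays. TES 1 was lowest and TES 3 highest, with the sham arrays between them. The means were 6.67 ± 0.14 and 6.61 ± 0.04, a difference of 0.07 (95% interval -0.13 to 0.26, limma adjusted p 0.976). Without TES 3 the difference was 0.0069. Its 6 probe sets ran from -0.15 to 0.32. TES 3 was thus the highest array for both ligand genes.

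The binding protein genes held the widest differences. Igfbp4, whose product binds IGFs and is cut by the protease encoded by Pappa, read 4.50, 4.47, 4.34 and 4.71 on TES arrays 1 to 4. On sham arrays 1 to 4 it read 4.76, 4.64, 4.75 and 4.74. TES 1, TES 2 and TES 3 lay below every sham array, and TES 4 lay among them. The means were 4.51 ± 0.15 and 4.72 ± 0.06, a difference of -0.22 (95% interval -0.42 to -0.01), which is 1.16 fold lower. The unadjusted p was 0.0410 and the limma adjusted p 0.878, rank 776 of 16633 genes by p. The exact two-sided permutation p was 0.0571.

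The difference of Igfbp4 was negative under every alternative tried. Its unadjusted p was not under 0.05 with median-centred arrays (0.0834), quantile normalization (0.0873), a mean-variance trend (0.0792), the replicate block (0.0504), the median probe set (0.509) or that of highest mean (0.266). Nor was it without TES 1 (0.0714), TES 2 (0.0836), TES 3 (0.125), sham 1 (0.0845), sham 3 (0.0798) or sham 4 (0.0771). Without TES 4 the difference was -0.29 (limma unadjusted p 0.00784, adjusted p 0.896) and past the study's thresholds. None of its 6 probe sets had an unadjusted p under 0.05, and 4 had negative differences. The lowest of these was -0.59, at probe set 10738146 (unadjusted p 0.165). Without that probe set the difference of Igfbp4 was -0.14.

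Igfbp2, which encodes a binding protein made in the eye and brain, read 3.00, 3.37, 3.29 and 3.06 on TES arrays and 3.43, 3.87, 2.99 and 3.41 on sham arrays. Sham 2 was the highest and sham 3 the lowest of the 8 arrays, so the TES range lies inside the sham range. The means were 3.18 ± 0.18 and 3.42 ± 0.36, a difference of -0.24 (95% interval -0.60 to 0.11, limma adjusted p 0.930). Without sham 2 it was -0.10 and without sham 3 it was -0.39, the latter past the study's thresholds with a limma unadjusted p of 0.0193 and an adjusted p of 0.883. The probe set of highest mean gave 0.073, the opposite sign. The value of Igfbp2 thus turns on which sham array is kept.

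Pigment epithelium and choroid were followed by 7 markers, Rpe65, Rdh5, Rgr, Ttr, Best1, Tyrp1 and Pmel (named Silv on the array). Their mean log2 signal on TES arrays 1 to 4 was 5.59, 6.37, 6.02 and 5.60. On sham arrays 1 to 4 it was 6.25, 6.35, 6.13 and 6.02. Among TES arrays Igfbp2 and these markers had the same order, with array 2 highest and array 1 lowest, and among sham arrays sham 2 was highest for both. The lowest sham array was sham 3 for Igfbp2 but sham 4 for the markers. Over all arrays the markers were highest on TES 2 and Igfbp2 on sham 2. Of the 7 markers 6 had negative differences, also under either other scaling. At an unadjusted p under 0.05 in limma there were 4 (Rpe65, Rdh5, Rgr and Ttr), against 5.57% of all genes. The part of these markers in the Igfbp2 values was not tested.

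Igfbp6, whose product prefers IGF2, read 2.79, 3.67, 2.42 and 2.95 on TES arrays and 2.77, 2.63, 2.45 and 2.80 on sham arrays. TES 2 was far above the other 7 arrays and TES 3 was the lowest. The means were 2.96 ± 0.52 and 2.66 ± 0.16, a difference of 0.30 (95% interval -0.17 to 0.76, limma adjusted p 0.940). Without TES 2 it was 0.06, and without TES 3 it was 0.48, past the study's thresholds with a limma unadjusted p of 0.0307 and an adjusted p of 0.920. At its low mean signal it is the only member whose difference reached 1.2 fold, as did those of 956 of all 16633 genes.

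Its 4 probe sets went different ways. Probe set 10899467 had a difference of -0.55 (unadjusted p 0.0330, limma adjusted p 0.964), while probe set 10899466 had one of 0.97 and read 5.04 on TES 2. Without the former, a choice made after its values were seen, the difference of Igfbp6 was 0.58. Fibroblast and meningeal markers (Col1a1, Col1a2, Col3a1, Dcn and Lum), 3 of 5 with positive differences, had a mean log2 signal of 3.20 to 3.50 on TES arrays and 3.19 to 3.37 on sham arrays. They were highest on TES 2 (3.50) and nearly as high on TES 4 (3.48), where Igfbp6 read 3.67 and 2.95. The lowest TES array was TES 1 for these markers but TES 3 for Igfbp6. Their part in the Igfbp6 values was not tested.

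Igfbp3, the main carrier of IGFs in blood, read 3.52, 3.85, 3.65 and 3.72 on TES arrays and 3.69, 3.48, 3.40 and 3.82 on sham arrays. The groups interleave. The means were 3.68 ± 0.14 and 3.60 ± 0.19, a difference of 0.08 (95% interval -0.16 to 0.33, limma adjusted p 0.976). With 1 array left out it ranged from 0.02 to 0.16.

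Igfbp5, a binding protein gene with firm signal on all 6 of its probe sets (6.75 to 9.16), read 7.63, 7.75, 7.73 and 7.62 on TES arrays and 7.70, 7.68, 7.77 and 7.66 on sham arrays. The difference was -0.02 (95% interval -0.19 to 0.15, limma adjusted p 0.995). The ends of this interval correspond to at most 1.14 fold. Igfbp5 also had wider 95% intervals for the median (-0.19 to 0.31) and the highest-mean probe set (-0.30 to 0.22). Its probe set differences ran only from -0.16 to 0.06. Its sign turned with median-centred arrays (0.017). In the RefSeq gene table Igfbp2 and Igfbp5 are next to each other among protein-coding genes, as are Igfbp1 and Igfbp3.

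Across the 135 probe sets of the 10 genes, 63 had positive and 72 negative differences, with a median of -0.01. At an unadjusted p under 0.05 there were 4, or 2.96%, against 5.13% of all probe sets, and all 4 were lower after TES, a direction that held for 2.8% of all probe sets. They belong to Igf1, Igf2r, Igfbp2 and Igfbp6. None passed the adjusted threshold in limma, and 0% of all probe sets passed it. The groups did not overlap in 3 probe sets, all of Igf2r, against 2.82% of all probe sets. Of these, 10702999 was higher after TES (0.39), and 10703022 (-0.60) and 10703029 were lower.

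Of the 48 Igf2r probe sets 24 had positive and 24 negative differences, from -1.29 to 0.83. Probe set 10703029 had the smallest p of these, with 6.19, 4.90, 4.54 and 6.39 on TES arrays and 6.90, 6.51, 6.44 and 6.44 on sham arrays. All TES values lay below all sham values. The difference was -1.06 (unadjusted p 0.0343, limma adjusted p 0.964). Igfbp2 probe set 10924225 had 1.95, 1.83, 2.03 and 1.70 on TES arrays and 2.71, 2.77, 2.27 and 2.01 on sham arrays, a difference of -0.56 (unadjusted p 0.0238, limma adjusted p 0.954). Its mean signal of 2.16 lies below the olfactory guide.

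The probe sets of smallest p in the remaining genes all had an unadjusted p above 0.10 and limma adjusted p of 0.987 or more. For Igf1r it was 10707905 with a difference of 0.34, and for Insr 10756233 with -0.35. For Igf2 it was 10727000 with -0.15, for Igfbp3 10778395 with 0.53 and for Igfbp5 10928840 with -0.16. The standard error of a single probe set ran from 0.12 to 0.92, against a median of 0.09 for the 10 gene means.

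**Figure D4:**
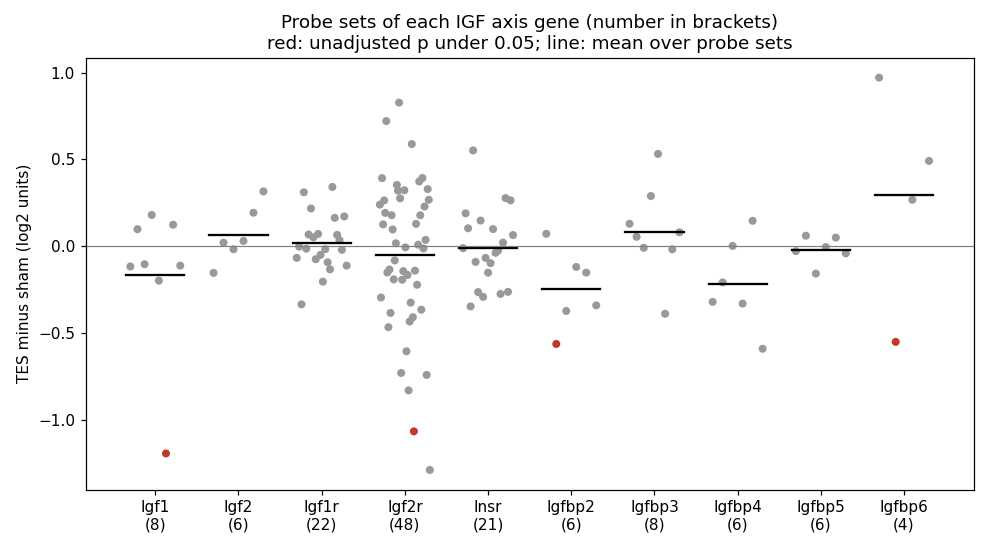
TES minus sham in log2 units for every probe set of the 10 genes, with the number of probe sets in brackets, red points for an unadjusted p under 0.05 and a black line at the gene's mean. Probe sets of Igf2r spread from -1.29 to 0.83 around a mean of -0.05, while those of Igfbp5 stay between -0.16 and 0.06.

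The wider pathway was covered by 63 measured genes of 68 listed. None passed the adjusted threshold in limma, and 1, Igfbp1, had an unadjusted p under 0.05 and at least 1.2 fold, again against 3.59% of all genes. Of the 63, 23 had positive and 40 negative differences, with a median of -0.03. With median-centred arrays the split was 33 to 30, and with quantile normalization it was 26 to 37. Over all 16633 genes 7494 were positive and 9139 negative.

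Other ligands and binding proteins had negative differences in 7 of 7 genes, and in 6 of 7 with median-centred arrays. The 7 include Ide (-0.09), a protease gene that was listed with them. Igfbp1, a binding protein gene that insulin represses in liver, had a TES mean of 3.05 ± 0.08 and a sham mean of 3.34 ± 0.27, which differ by -0.29 (limma adjusted p 0.878), at a mean signal (3.20) close to the olfactory guide. Its unadjusted p was not under 0.05 with median-centred arrays (0.0798), a mean-variance trend (0.0547), the unmoderated test (0.0824) or the probe set of highest mean (0.623). Nor was it without TES 1 (0.0641), TES 2 (0.0679), TES 3 (0.0915), sham 1 (0.0865) or sham 2 (0.114). In limma it was under 0.05 with the replicate block (0.0367), quantile normalization (0.0228), the median probe set (0.00811) and either filter on low signal (0.0366). No limma adjusted p of a named gene of the wider list was below 0.783 under any alternative. The difference of Igfbp1 was -0.18 without sham 2 and -0.38 without sham 3. Igfbp7, a related secreted protein gene of vessel walls, read 9.25, 8.85, 9.44 and 8.92 on TES arrays but 9.27, 9.27, 9.28 and 9.27 on sham arrays. Its difference was -0.16 (limma adjusted p 0.948), with TES 2 and TES 4 as its lowest arrays. The Igf1 mean that includes probe set 10894701 was also lowest on them. The median signal of the whole array was lowest on them too. The difference was -0.07 without TES 2 and -0.27 without TES 3, and with the median probe set it was 0.023.

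Proteases and their inhibitors had positive differences in 2 of 7 and negative in 5. Pappa, whose product cuts IGFBP4, was at 4.88 ± 0.28 and 5.15 ± 0.13, a difference of -0.27 (limma adjusted p 0.893), with TES 3 at 5.29 and the other TES arrays between 4.71 and 4.76. The probe set of highest mean gave 0.069. Stc2, which encodes an inhibitor of that protease, had a difference of -0.23 at a signal below the olfactory guide, and of -0.14 without sham 2. The mRNA-binding protein genes Igf2bp1 and Igf2bp2, whose products bind Igf2 mRNA, had differences of -0.02 and -0.08. The former turned to 0.012 with median-centred arrays, and the latter was -0.03 without TES 2.

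Receptor adaptors and attenuators had positive differences in 9 of 17 and negative in 8. Irs1, the first adaptor of both receptors, had a TES mean of 6.28 ± 0.21 and a sham mean of 6.09 ± 0.12, which differ by 0.20 (95% interval -0.05 to 0.44, limma adjusted p 0.920), and Irs2 had a difference of -0.07. That of Irs1 was 0.11 without TES 3, and that of Irs2 -0.01 without sham 4 and -0.11 without TES 2. Insrr, a receptor of the insulin receptor family, was at 4.27 ± 0.14 and 4.47 ± 0.06, with all TES arrays below all sham arrays. Its difference of -0.19 had a limma adjusted p of 0.883 and was -0.13 without TES 2. Groups did not overlap for 2 of the 63 wider genes, Insrr and Gsk3a, against a similar share of all genes (3.31%). Socs2, a feedback inhibitor of growth hormone signalling, had a difference of -0.20, and 0.14 with the probe set of highest mean.

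In the PI3K and AKT branch 7 of 20 differences were positive and 13 negative, against 11 and 9 with median-centred arrays and 8 and 12 with quantile normalization. Akt1, the kinase gene at its centre, had means of 8.43 ± 0.07 and 8.46 ± 0.08, which differ by -0.03 (95% interval -0.21 to 0.15, limma adjusted p 0.994). Inppl1, a lipid phosphatase gene that opposes PI3K, had a difference of -0.14, and Gsk3a, a kinase gene that AKT inhibits, one of -0.11 with TES below sham on all arrays. FOXO factors and targets had positive differences in 5 of 9. The 9 include Sgk1, the growth hormone gene Gh1 (0.10) and its receptor gene Ghr (-0.03), which were listed with them. Foxo1 and Foxo3, transcription factor genes that AKT holds out of the nucleus, had differences of -0.09 and -0.11. That of Foxo1 ranged from -0.16 (without TES 2) to -0.00085 (without TES 4), and that of Foxo3 was -0.06 without sham 4. Sgk1, a kinase gene close to AKT, had 0.15 (0.06 without sham 2), and the gluconeogenic gene G6pc -0.19 at a signal below the olfactory guide.

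**Figure D5:**
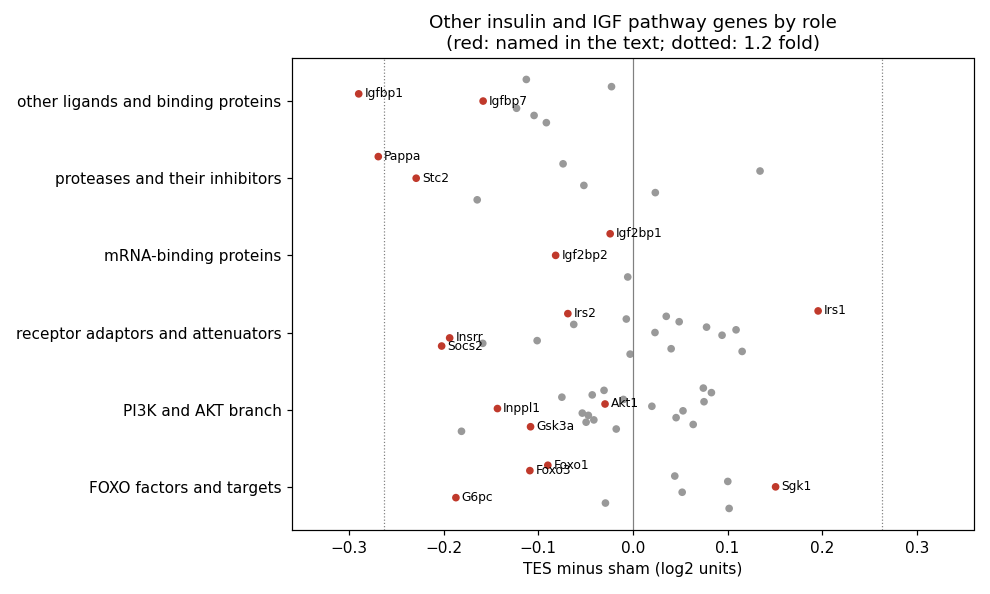
TES minus sham in log2 units for 63 other insulin and IGF pathway genes by role, with red points for the genes named in the text and dotted lines at 1.2 fold. Igfbp1 (-0.29) and Pappa (-0.27) are the 2 genes past a dotted line, against 956 of all 16633 genes. The PI3K and AKT branch stays between -0.18 and 0.08.

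For each member the 1 gene whose signal followed it best over the 8 arrays was found among the other genes above the olfactory guide, 12500 for 9 members and 12501 for Igfbp6. Pearson's r was between 0.92 and 0.99, a description of these 8 arrays. Igf1 was closest to Cyp2u1 (0.98) and Igf2 to Snrpb (0.96). Igf1r was closest to Lef1 (0.94), Igf2r to Ubtf (0.97) and Insr to Asam (0.98). Igfbp2 was closest to Lpar1 (0.99), Igfbp3 to Akap10 (0.95), Igfbp4 to Ctbp2 (0.98), Igfbp5 to Vgll4 (0.95) and Igfbp6 to S100a11 (0.92). No 2 members shared their closest gene.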

How the data were processed

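The authors made the deposited log2 values as GC-RMA signals in GeneSpring GX, per the series text; the submitters' processing notes name GCRMA with no version. The steps of that method include an adjustment of probe background by base composition and a summary of probe sets. The log base was taken from the values, which run from 0.549 to 13.2. The sources used here do not name a normalization between arrays. Scanner files were not analysed here, so signal over each probe's own background is unknown. Precision is limited by the 8 arrays.

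The table holds 213067 probe sets, of which the array annotation names exactly 1 gene for 172924 (81.2%). These were averaged per array into 16633 genes. All 10 member symbols are current RefSeq symbols. Coordinates are not printed, because the annotation names no genome build.

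TES was compared with sham in limma 3.58.1 (R 4.3.3, lmFit and eBayes, no covariate, no filter), on genes and on probe sets, with Benjamini-Hochberg adjustment over the whole table. The procedure was tested on simulated data. The series text selects by SAM (Significance Analysis of Microarrays) at p under 0.05 and a minimum of 1.2 fold; these study thresholds were applied here to limma's unadjusted p. SAM itself was not run. Exact permutation tests used the 70 relabellings of 8 arrays, which allow no p below 0.0286.

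The alternatives were a replicate block, median-centred and quantile-normalized arrays, the median probe set or that of highest mean per gene, 2 filters on low signal, a mean-variance trend with robust moderation, an unmoderated equal-variance test, and leaving out each array. Leaving out each member's probe set of smallest p was added after seeing the data.

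The members, lists and rules were chosen with earlier results of these data known. Named were all members, the 2 genes of smallest p in each role of the wider list plus Irs1, Irs2, Akt1, Foxo1 and Foxo3, each member's probe set of smallest p, and its most similar gene. Probe sets 10702999, 10703022 and 10899466 were named after their values were seen. Of 68 listed pathway symbols, 5 are not analysed here.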

Additional observations from a re-analysis of the deposited data

Results flagged for a closer look

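In 4 of 74 groups of 4 arrays checked, 1 array lay far from the rest, where chance alone gives about 1 in 20. There the gap to the nearest other array, divided by the whole range, was above Dixon's critical value. Igfbp4 was at 4.64 on sham 2 and between 4.74 and 4.76 on the other sham arrays, and without sham 2 its difference was -0.24. Pappa was at 5.29 on TES 3 and between 4.71 and 4.76 on the other TES arrays, and without TES 3 its difference was -0.41. Irs2 was at 5.36 on TES 2 against 5.167 to 5.198. Igf2r probe set 10703029 was at 6.90 on sham 1 against 6.44 to 6.51.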

How the results depend on the processing

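Of 188 alternative values of the 10 members, 170 kept their direction and side of the threshold and 18 turned the sign, and no adjusted p was below 0.787. The signs turned with the median probe set for Igf1 (0.14), Igf1r (-0.0078), Insr (0.0049) and Igfbp5 (0.058), and with the probe set of highest mean for Igf2 (-0.016), Igf1r (-0.066), Insr (0.149) and Igfbp2 (0.073). Median centring turned Insr (0.028) and Igfbp5 (0.017), quantile normalization Insr (0.014), and leaving out the probe set of smallest p Insr (0.0082) and Igfbp5 (0.0083). With 1 array left out, Igf1 ranged from -0.24 to -0.11, Igf2 from 0.0069 to 0.11, Igf1r from -0.0088 to 0.045, Igf2r from -0.07 to -0.01, Insr from -0.057 to 0.041, Igfbp2 from -0.39 to -0.10, Igfbp3 from 0.02 to 0.16, Igfbp4 from -0.29 to -0.16, Igfbp5 from -0.043 to 0.0027 and Igfbp6 from 0.06 to 0.48. Members past the study's thresholds ranged from 0 to 1 (Igfbp6 without TES 3, Igfbp4 without TES 4, Igfbp2 without sham 3), and member probe sets at an unadjusted p under 0.05 from 1 (without sham 4) to 6 (without sham 1), with 2 without sham 2. All genes past the study's thresholds numbered 597, but 367 without the lowest quartile of signal, 369 without genes up to the olfactory guide (both tested fewer genes) and 348 with the unmoderated test. They ranged from 618 to 757 with 1 array left out. Of the 597, 45.4% were higher after TES, against 72.4% with median-centred arrays and 29.7% without the lowest quartile. Among named genes of the wider list, 11 of 285 alternative values turned the sign: Igfbp7 (0.023), Igf2bp2 (0.14) and Akt1 (0.061) with the median probe set, Pappa (0.069), Igf2bp1 (0.34) and Socs2 (0.14) with that of highest mean, Igf2bp1 (0.012) and Akt1 (0.0069) with median centring, and Igf2bp1 (-0.11 to 0.054) and Akt1 (-0.058 to 0.0083) with 1 array left out. The cause of these turns was not tested. No alternative turned a named member probe set. Igfbp6 has no value under either filter on low signal.

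The replicate number as a block gave 678 genes past the study's thresholds and 0 at the adjusted threshold, with 11687 probe sets at an unadjusted p under 0.05 against 10921 without it. Under the block Igfbp4 had a difference of -0.22 with an unadjusted p of 0.0504. Arrays of the same number deviated together with correlations of 0.12, 0.13, 0.0056 and -0.12 for numbers 1 to 4 across genes, and not every array correlated best with its own number, so the numbers were not taken as pairs.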
